A study of Mus musculus with 2 samples.

Results

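Metabotropic glutamate receptors are G-protein-coupled receptors for glutamate, the main excitatory transmitter of the brain. The genes Grm5, Grm2, Grm3, Grm4, Grm7 and Grm8 were picked by symbol, 6 of the 32285 genes counted in each of 2 mouse single-nucleus RNA-seq (snRNA-seq) libraries. Group I receptors, here Grm5, signal through Gq proteins and phospholipase C and sit mainly on the postsynaptic side. Group II (Grm2 and Grm3) and group III (Grm4, Grm7 and Grm8) signal through Gi/o proteins, which restrain adenylyl cyclase. Group III receptors are best known as presynaptic brakes on transmitter release, Grm2 as a receptor of the mossy fibre terminals of dentate granule cells, and Grm3 as a group II receptor that glia also make.

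The libraries came from Slide-tags, a method that marks nuclei in an intact frozen section with spatial DNA barcodes before droplet sequencing. One library was a hippocampus section of a C57BL/6J male aged 56 days, perfused under isoflurane with no other treatment named, and the other was a sagittal brain section of a C57BL/6J embryo at embryonic day 14 (E14), whose dam was perfused and which was bought frozen. No transgene or mutant allele was named for either animal. With 1 library per group, the intervals below cover counting error only, no test between groups was possible, and age, region, animal, counting software version and library cannot be told apart.

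After filtering, the hippocampus held 1609 nuclei with 15346746 unique molecular identifiers (UMIs), a median of 6607 per nucleus, and the E14 brain held 9036 nuclei with 58923882 UMIs, a median of 4204. Barcodes shared by the libraries numbered 1. Classes were set per nucleus from lists of 8 marker genes, so each class name means no more than "with these markers" (CA1-like, thalamic-like and so on), and only classes of at least 20 nuclei were used. The hippocampus gave 10 classes that held 65.6% of its nuclei, and the E14 brain gave 13 that held 27.5%. In each class 5 or more of its 8 markers were at 2 times the level in other nuclei or higher. The lowest counts were 5 of 8 for CA3 (Coch, Prss23 and Tspan18 fell short) and 6 of 8 for the hypothalamic class (Nkx2-1 and Hmx2 fell short). The hippocampus section thus also held 91 nuclei with thalamic markers such as Tcf7l2 and Prkcd, and the E14 section held hypothalamic, thalamic, and fibroblast or mesenchyme classes. The 433 hippocampal and 5510 E14 nuclei without a class carried 15.7% and 53.2% of the Grm5 UMIs of their libraries.

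Grm5 lies on chromosome 7 (GRCm38, 87584168 to 88134907, plus strand) and spans 551 kb, Grm2 on chromosome 9 (106643095 to 106656082, minus strand) and spans 13.0 kb, and Grm3 on chromosome 5 (9485541 to 9725170, minus strand) and spans 240 kb. Grm4 lies on chromosome 17 (27422387 to 27521403, minus strand) and spans 99.0 kb. Both remaining genes are on chromosome 6, Grm8 at 27275119 to 28135178 on the minus strand with a span of 860 kb, and Grm7 at 110645581 to 111567230 on the plus strand with a span of 922 kb. Their exons cover only 3.05 to 10.2 kb, and since intronic reads were counted, introns add to their UMIs. Levels below are UMIs per 1000000 UMIs of a class (CPM) and are compared between classes for 1 gene at a time. Between genes the hippocampal level was divided by the span. On that scale Grm5 was highest in the hippocampus with 275 CPM per 100 kb, ahead of Grm7 with 144, Grm2 with 132, Grm3 with 93.9, Grm4 with 18.5 and Grm8 with 8.27. In the E14 brain the order was Grm5 (109 CPM per 100 kb), Grm3 (58.5), Grm7 (54.3), Grm8 (34.6), Grm2 (23.1) and Grm4 (9.34). Grm2 and Grm7 each overlap a counted antisense gene, with 33 and 65 UMIs in the hippocampus beside 263 and 20357 for the receptors.

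Grm5, the group I receptor, was high in every neuronal class of the hippocampus and in oligodendrocyte precursors. Its level was 2349 CPM in CA1 (95% interval 2297 to 2402), 1847 in CA3 (1745 to 1954), 1794 in dentate granule (1752 to 1837) and 1759 in inhibitory nuclei (1648 to 1876). The last 3 of these overlapped, and CA1 stood above dentate granule by 1.31-fold (1.27 to 1.35). Thalamic nuclei had the lowest neuronal level, 945 CPM (895 to 997), which was 2.48-fold below CA1 (2.34 to 2.63). Among glia, oligodendrocyte precursors held 1115 CPM (954 to 1294), 59.0-fold more than oligodendrocytes with 18.9 (10.6 to 31.1) and 9.69-fold more than astrocytes with 115 (90.3 to 144). Their interval overlapped that of the thalamic class.

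Nuclei with a Grm5 UMI were common in these classes. They numbered 171 of 180 CA1, 255 of 258 dentate granule and 24 of 27 oligodendrocyte precursor nuclei, whose median depths were 18546, 12299 and 5525 UMIs. Thinning every nucleus to 1000 UMIs, which left out 203 hippocampal and 1039 E14 nuclei with fewer, gave 82.8% (76.3 to 88.1), 79.3% (73.8 to 84.1) and 66.7% (46.0 to 83.5) of these classes, 87.5% (71.0 to 96.5) of CA3 and 8.85% (4.33 to 15.7) of astrocytes. Microglia, at a median depth of 2057 UMIs, had a Grm5 UMI in 0 of 38 nuclei. A floor of 3 counts allows up to 7.89% of nuclei with a UMI and the exact interval up to 9.25%, and neither limits how many nuclei express the gene.

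Grm2, the first of the group II genes, was sparse and centred on dentate granule nuclei. These held 158 of the 263 UMIs of the library, or 60.1%, at 41.7 CPM (35.5 to 48.7), and a UMI was seen in 41.1% of them (35.0 to 47.4). Thalamic nuclei came next with 14 UMIs at 9.83 CPM (5.38 to 16.5), 4.24-fold lower (2.45 to 7.94). CA1, with 3290746 UMIs in all, had 1 Grm2 UMI, so that dentate granule stood 137-fold above it with a counting interval of 24.3 to 5455. CA3 had 0, which puts dentate granule at least 9.18-fold higher against a floor of 3 counts in the class. Inhibitory nuclei, astrocytes, oligodendrocyte precursors, microglia and endothelial nuclei had 0 as well, and oligodendrocytes 3. With nuclei that hold neuronal RNA kept, as described below, astrocytes had 6 Grm2 UMIs at 7.38 CPM (2.71 to 16.1). Oligodendrocytes then had 8, oligodendrocyte precursors 1, microglia 1 and endothelial nuclei 0. No nucleus held more than 5 Grm2 UMIs, and at 1000 UMIs per nucleus the dentate share was 5.47% (3.02 to 9.01). Unsupervised clustering gave a pair of clusters of 219 and 208 nuclei, with 5 and 6 of the 8 dentate granule markers raised. The pair also held nuclei outside the dentate granule class. Grm2 differed between these clusters in the opposite direction to the other members with enough UMIs. Grm2 was 49.8 CPM (42.2 to 58.3) in one and 28.9 (22.8 to 36.2) in the other, while Grm7 was 1352 (1311 to 1394) and 1876 (1824 to 1929). Grm5 was 1601 and 1928 CPM, Grm3 90.8 and 122, and Grm8 19.4 (14.8 to 25.0) and 87.5 (76.5 to 99.5). Within the class itself, Grm2 was 30.9 CPM (23.6 to 39.7) in the 142 nuclei of the second cluster. In the 116 other nuclei of the class it was 53.5 (43.4 to 65.3).

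Grm3, the other group II gene, was highest in macroglia. Oligodendrocytes held 1318 CPM (1239 to 1400) and astrocytes 1147 (1066 to 1233), and the next class, thalamic nuclei, held 118 (101 to 137). The astrocyte class was mixed, with 1301 CPM (1202 to 1406) in the 80 nuclei of its main cluster and 637 (516 to 779) in the 41 outside it. The main-cluster level overlapped the 1341 CPM (1261 to 1425) of the 227 oligodendrocytes in their own main cluster. A Grm3 UMI was present in 85.1% of 235 oligodendrocytes and 80.2% of 121 astrocytes, and in 65.6% (59.0 to 71.8) and 50.4% (40.9 to 60.0) at 1000 UMIs per nucleus. Oligodendrocyte precursors stood apart from both, with 77.8 CPM (40.2 to 136), 16.9-fold below oligodendrocytes (9.66 to 32.9), and 9 of their 12 UMIs came from 1 nucleus, without which the level was 20.6. The neuronal classes ranged from 118 CPM in thalamic and 105 (94.7 to 116) in dentate granule nuclei down to 7.57 (2.46 to 17.7) in CA3. Dentate granule exceeded CA3 by 13.8-fold (5.88 to 42.9) and CA1 exceeded it by 8.91-fold (3.76 to 27.7). The thalamic, endothelial, dentate granule, oligodendrocyte precursor, inhibitory and CA1 levels each overlapped their neighbour in the order. Microglia had 3 UMIs, all in 1 of 38 nuclei. Outside the classes, a cluster of 29 nuclei with cortical excitatory markers held 471 CPM (412 to 537) of Grm3 in 28 nuclei, and a cluster of 19 with mural markers held 515 (424 to 620) in 17.

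Grm4, the first of group III, was found mostly in thalamic nuclei of the hippocampus section. Thalamic nuclei carried 232 of 281 UMIs, or 82.6%, at 163 CPM (143 to 185), and 68.1% of the 91 nuclei had a UMI. CA1 followed by count with 17 UMIs at 5.17 CPM (3.01 to 8.27), 31.5-fold lower (19.3 to 55.1). Dentate granule nuclei had 2 UMIs in 3788276, and CA3, microglia and endothelial nuclei had 0. Inhibitory nuclei had 5 UMIs in 5 nuclei at 9.46 CPM (3.07 to 22.1), and every class below the thalamic one overlapped its neighbours.

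Grm7 was high in neurons but ordered unlike Grm5, and it was also found in the oligodendrocyte lineage. CA3 led with 2777 CPM (2651 to 2907), then thalamic nuclei with 2405 (2326 to 2487), dentate granule with 1661 (1620 to 1702) and CA1 with 1144 (1108 to 1182), and none of these neighbours overlapped. CA3 exceeded CA1 by 2.43-fold (2.29 to 2.57), where for Grm5 CA1 was the higher of that pair. Inhibitory nuclei had 339 CPM (291 to 392), 8.20-fold below CA3 (7.03 to 9.62), and 45 of their 179 UMIs lay in 1 nucleus. Oligodendrocyte precursors with 642 CPM (521 to 781) and oligodendrocytes with 631 (577 to 688) overlapped, and oligodendrocytes exceeded astrocytes by 15.6-fold (10.5 to 24.1). Astrocytes had 40.4 CPM, 12.6 without the nucleus that held 18 of their 26 UMIs. Among 235 oligodendrocytes, 98 had both a Grm3 and a Grm7 UMI, 200 had Grm3 and 107 had Grm7. Thinned to 1000 UMIs, Grm7 was seen in 81.3% (63.6 to 92.8) of CA3, 30.4% (24.4 to 36.8) of oligodendrocyte and 0.885% (0.0224 to 4.83) of astrocyte nuclei. Microglia and endothelial nuclei had 1 UMI each. The mural cluster of 19 nuclei, in which 8 of 8 mural markers were raised, held 1026 CPM of Grm7 (896 to 1170) in 17 nuclei, beside 96.6 of Grm5 (59.8 to 148). Its neuronal RNA was not filtered.

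Grm8, the last of group III, was low in most hippocampal classes and uneven within them. Inhibitory nuclei led the named classes with 339 CPM (291 to 392), 7.01-fold above dentate granule (5.67 to 8.66) and 42.9-fold above CA1 (28.3 to 67.4). Of their 179 UMIs, however, 80 came from 1 of the 36 nuclei, without which the level was 194, and 15 nuclei had any. CA3 had 63.6 CPM with 32 of 42 UMIs in 1 nucleus (15.5 without it), and dentate granule had 48.3 (41.6 to 55.8). A further source lay outside the classes. The cluster of 29 nuclei, in which 5 of 8 cortical excitatory markers were raised, held 437 Grm8 UMIs at 911 CPM (828 to 1001). That was 40.1% of the library's Grm8, spread over 27 of the 29 nuclei with at most 39 UMIs in one. The inhibitory cluster held 303 CPM, and the dentate, CA1, CA3 and thalamic clusters were at 87.5 or lower.

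**Figure D1:**
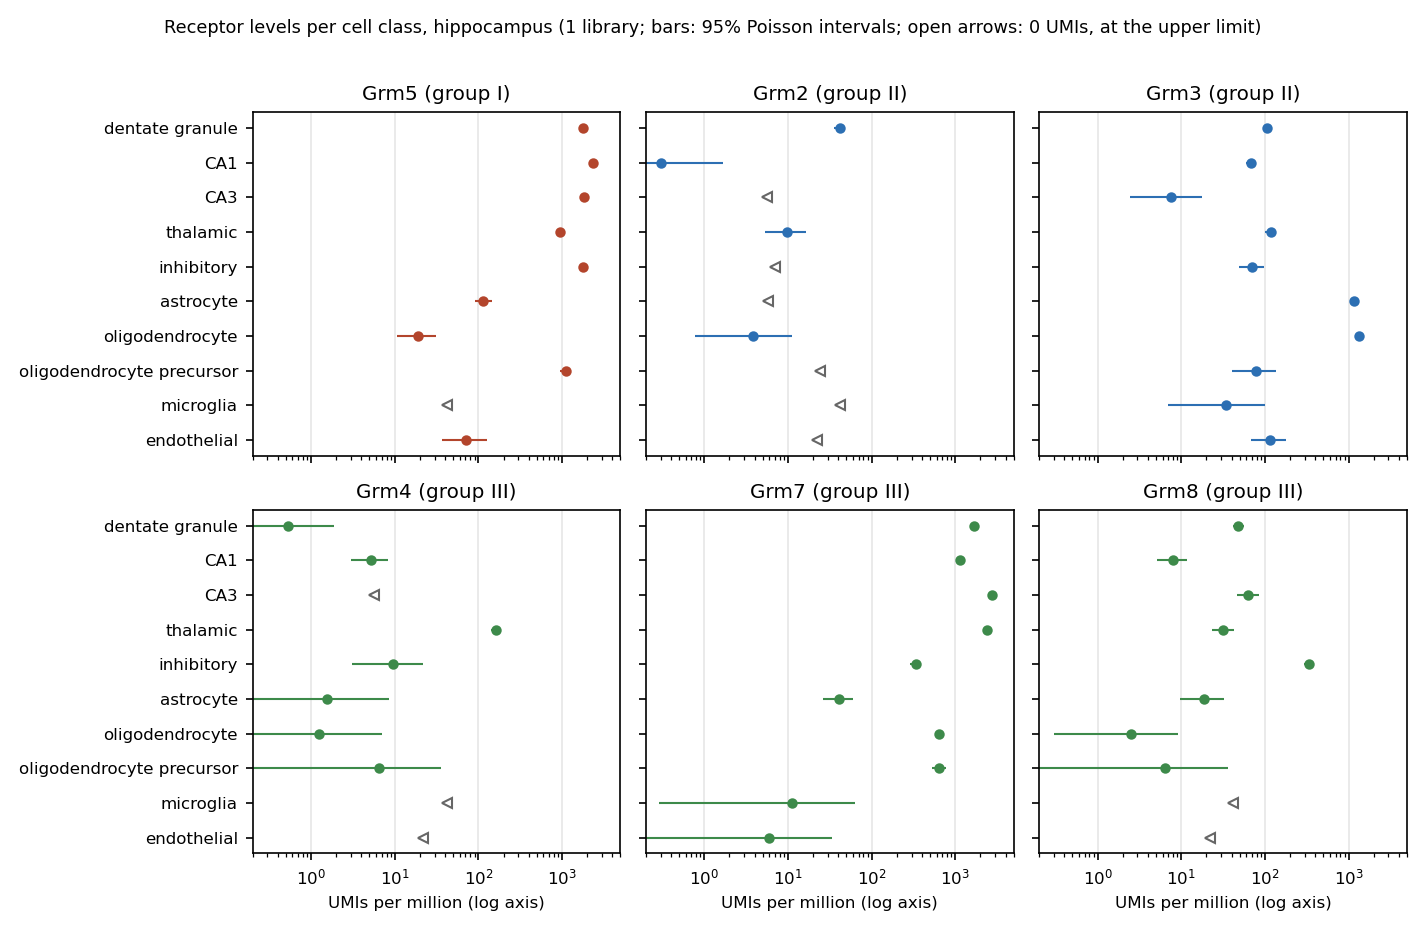
CPM (log axis) of each receptor in the 10 classes of the hippocampus library; points are class levels, bars 95% Poisson intervals, and open arrows mark classes with 0 UMIs at the upper limit of their interval. Grm5 and Grm7 were at 339 CPM or more in the 5 neuronal classes, Grm3 was at 1147 and 1318 CPM in astrocytes and oligodendrocytes, Grm4 peaked in thalamic and Grm2 in dentate granule nuclei.

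In the E14 brain Grm5 was led by the thalamic class with 1358 CPM (1316 to 1401), followed by striatal nuclei with 1075 (972 to 1187). GABAergic nuclei with Gata or Tal genes, a marker set of midbrain and diencephalic GABAergic neurons, had 958 (858 to 1066) and overlapped striatal nuclei. That marker list held no gene for GABA synthesis or vesicle loading. The class was mixed, with Grm5 at 1394 CPM (1200 to 1610) in the 22 nuclei of its largest cluster and 692 (586 to 812) in the other 15. Grm3 was 377 (280 to 497) and 133 (89.1 to 191) on that split. Cortical excitatory (426, 404 to 450) and forebrain GABAergic nuclei (415, 397 to 434) overlapped, and cortical excitatory nuclei were 3.19-fold below thalamic nuclei (2.99 to 3.39). Among progenitors, intermediate progenitors (394, 349 to 444) stood 1.95-fold (1.68 to 2.26) above radial glia (202, 186 to 220). Thinned to 1000 UMIs, Grm5 was seen in 59.2% (54.5 to 63.8) of thalamic, 20.6% (16.1 to 25.8) of cortical excitatory and 7.16% (4.64 to 10.5) of radial glial nuclei. Fibroblast, endothelial and microglia or macrophage classes had 10, 4 and 2 UMIs, the last in 5.41% of 37 nuclei, and 47 of the 58 in choroid plexus lay in 1 nucleus, without which its level fell from 99.9 to 22.2 CPM.

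Grm2 was rare at E14, with 177 UMIs in 163 of 9036 nuclei. The class with Cajal-Retzius markers, named for the early Reln neurons of the cortical marginal zone, had the highest level, 27.9 CPM (18.8 to 39.8) from 30 UMIs in 26 of 161 nuclei. It exceeded thalamic nuclei, with 7.10 CPM (4.4 to 10.9), by 3.93-fold (2.18 to 7.22) and forebrain GABAergic nuclei, with 2.26, by 12.4-fold (6.02 to 27.3). Cortical excitatory nuclei had 2 UMIs in 282 nuclei and radial glia 1 in 344. Intermediate progenitors, GABAergic nuclei with Gata or Tal genes, choroid plexus, endothelial nuclei and the microglia or macrophage class had 0. With nuclei that hold neuronal RNA kept, as described below, the last 3 had 2, 1 and 2.

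Grm3 was highest at E14 outside the neural lineage. The fibroblast or mesenchyme class held 575 CPM (512 to 645), 4.12-fold above endothelial nuclei (3.16 to 5.44) and 12.4-fold above choroid plexus (8.33 to 19.1). Endothelial Grm3 was 139.6 CPM, against 71.8 as a mean over nuclei and 233 with clusters, where the fibroblast or mesenchyme class was at 552 and 645. A UMI was present in 49.3% of its 146 nuclei, and in 38.4% (29.8 to 47.5) of those with 1000 UMIs or more after thinning, against 15.7% (12.4 to 19.4) of thalamic nuclei. Neuronal classes ranged from 225 CPM (178 to 281) in GABAergic nuclei with Gata or Tal genes and 203 (187 to 219) in thalamic nuclei to 69.8 (60.8 to 79.7) in cortical excitatory nuclei. Radial glia had 64.5 CPM (55.4 to 74.7) and overlapped cortical excitatory nuclei and intermediate progenitors. Oligodendrocyte precursors numbered 5, after 18 of 23 were left out for neuronal RNA as described below. No astrocyte list was used at this age, so the adult macroglial level had no counterpart.

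Grm4 had 545 UMIs at E14, with 25.7 CPM (11.7 to 48.7) in GABAergic nuclei with Gata or Tal genes, 22.0 (14.6 to 31.8) in hypothalamic and 16.2 (12.0 to 21.5) in thalamic nuclei. These 3 overlapped, and the first rested on 9 UMIs, 4 of them in 1 nucleus. A cluster of 653 nuclei that no marker list named held 125 of the UMIs, or 22.9%, at 30.1 CPM (25.1 to 35.9). It included 71 of the 93 hypothalamic nuclei. Thalamic nuclei exceeded cortical excitatory nuclei, with 8 UMIs at 2.57 CPM, by 6.31-fold (2.96 to 15.4). Choroid plexus, fibroblast, endothelial and microglia or macrophage classes had 0 UMIs. With nuclei that hold neuronal RNA kept, as described below, these classes had 3, 7, 3 and 3.

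Among the classes, Grm7 at E14 was again led by thalamic nuclei with 808 CPM (776 to 841). That was 2.99-fold (2.76 to 3.24) above cortical excitatory nuclei with 270. A cluster of 397 nuclei that no marker list named read higher, at 1022 CPM (983 to 1063). Another unnamed cluster, of 617 nuclei, was at 887 (857 to 919). Radial glia had 86.2 CPM (75.6 to 97.9) and intermediate progenitors 285 (246 to 327), a 3.30-fold difference (2.72 to 4). The fibroblast or mesenchyme class held 536 CPM (475 to 604), 8.03-fold above endothelial nuclei (5.58 to 11.9), whose 33 UMIs included 25 in 1 nucleus. Grm3 and Grm7 were found together in 27 of the 146 fibroblast or mesenchyme nuclei, with Grm3 in 72 and Grm7 in 42. The class with Cajal-Retzius markers had 553 CPM (510 to 599), but it was not uniform. In the 103 of its nuclei that fell in 1 cluster, where Reln was at 12071 CPM, Grm7 was 89.4 (66.8 to 117) and Grm8 80.8 (59.4 to 107). In the 58 outside it, with Reln at 2168 CPM, they were 1099 (1009 to 1196) and 676 (606 to 753), while Grm2 was 29.2 (17.0 to 46.8) inside and 26.3 (14 to 45.0) outside.

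Grm8 at E14 was highest in the thalamic class, with 913 CPM (879 to 948), 4.01-fold above forebrain GABAergic nuclei (3.74 to 4.30) and 6.18-fold above hypothalamic nuclei (5.33 to 7.20). Striatal nuclei had 602 CPM (525 to 686), 2.64-fold above forebrain GABAergic nuclei with 228 (215 to 242). The 34 striatal nuclei were spread over clusters, with only 7 in the largest. Grm8 was 1634 CPM (1286 to 2049) in those 7 and 454 (383 to 534) in the other 27, while Grm5 was 567 and 1148. At 1000 UMIs per nucleus, Grm8 was seen in 48.7% (43.9 to 53.4) of thalamic, 14.2% (11.8 to 17.0) of forebrain GABAergic and 6.76% (4.12 to 10.4) of cortical excitatory nuclei. Of 452 thalamic nuclei, 305 had both a Grm5 and a Grm8 UMI and 37 had neither. Radial glia with 107 CPM (95 to 120) and intermediate progenitors with 105 (82.6 to 133) overlapped. Both classes were mixed. Grm8 was 32.4 CPM (23.2 to 44.1) in the 176 radial glia of their main cluster and 167 (147 to 189) in the 168 outside it, and 6.12 (0.155 to 34.1) in 30 and 136 (106 to 171) in 52 intermediate progenitors. Grm5 of radial glia was 81.0 (65.9 to 98.5) and 300.2 (273 to 329) on the same split, and as means over nuclei Grm8 was 60.8 and 60.3 in the 2 classes. The microglia or macrophage class, with a median depth of 2721 UMIs, had 0 Grm8 UMIs in 37 nuclei. That 0 holds only after 35 of 72 nuclei were left out for neuronal RNA, as described below. With them kept, the class had 170 Grm8 UMIs at 344 CPM (294 to 399).

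**Figure D2:**
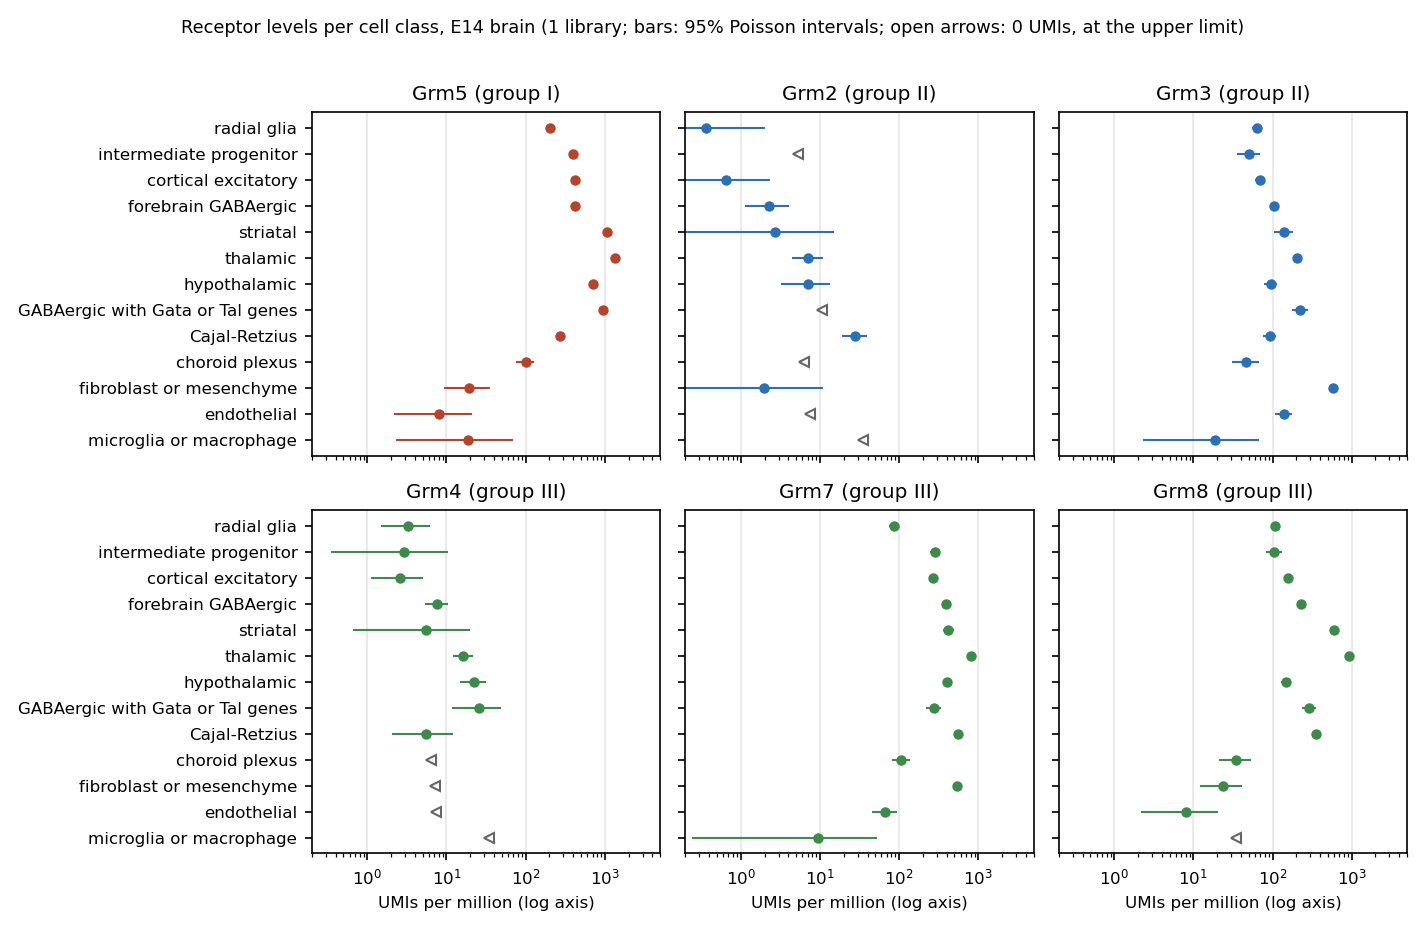
CPM (log axis) of each receptor in the 13 classes of the E14 brain library, drawn as for the hippocampus: points are class levels, bars 95% Poisson intervals, open arrows 0 UMIs. Thalamic nuclei led for Grm5 (1358 CPM), Grm7 (808) and Grm8 (913), the fibroblast or mesenchyme class for Grm3 (575) and the class with Cajal-Retzius markers for Grm2 (27.9).

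The members therefore made up different repertoires from class to class. Of the UMIs of all 6 receptors, Grm5 took 65.7% in CA1 and 69.9% in inhibitory nuclei, Grm7 took 59.1% in CA3 and 65.5% in thalamic nuclei, and Grm3 took 86.7% in astrocytes and 66.7% in oligodendrocytes. Dentate granule nuclei were nearly even, with 49.2% Grm5 and 45.5% Grm7. Oligodendrocyte precursors carried 60.4% Grm5 and 34.7% Grm7. In the E14 thalamic class Grm8 took 27.6% where it took 0.860% in the adult thalamic class. These shares rest on raw UMIs, so the long genes Grm5, Grm7 and Grm8 weigh more in them.

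**Figure D3:**
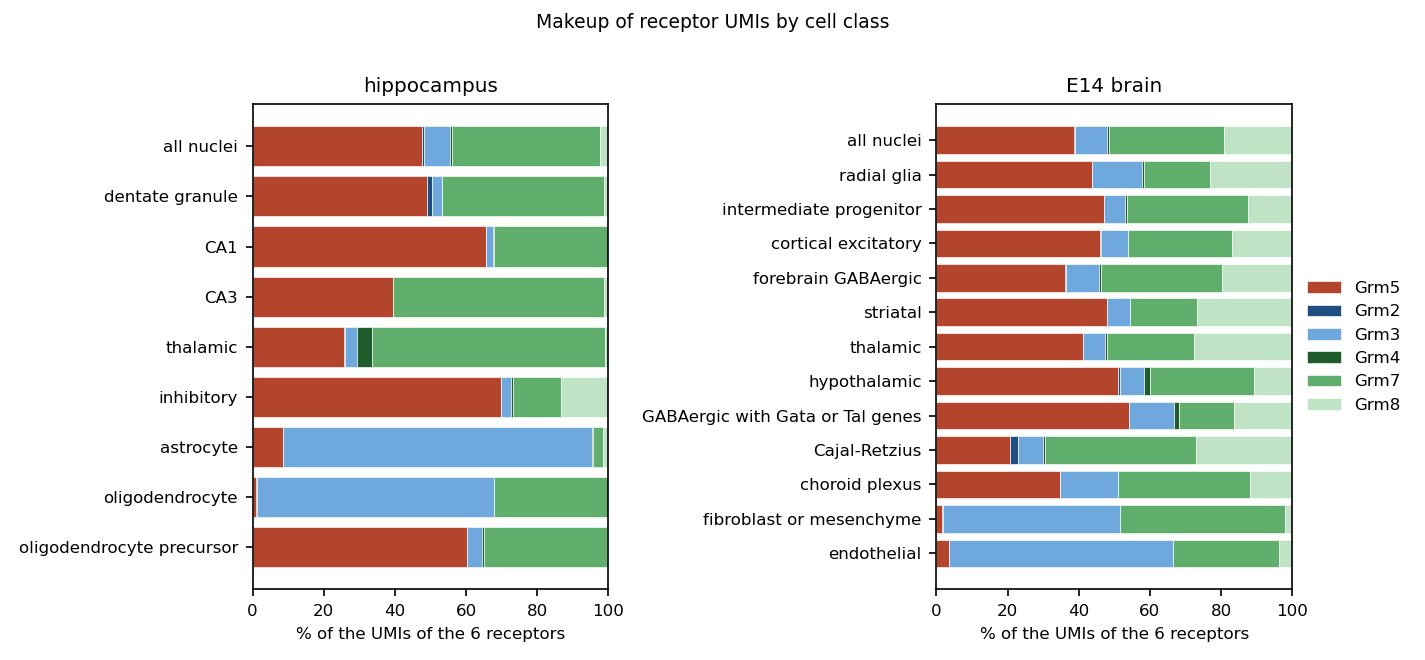
Share of each receptor in the summed UMIs of the 6 receptors (horizontal axis, percent) for all nuclei and for each class with at least 50 such UMIs, hippocampus on the left and E14 brain on the right. Grm3 fills most of the bar in adult astrocytes (86.7%) and oligodendrocytes (66.7%), and Grm8 is wide in E14 thalamic nuclei (27.6%) and narrow in adult ones (0.860%).

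Adult and embryonic levels were then set side by side, first over all nuclei and then in classes with like markers. Over all nuclei Grm2 was 5.71-fold higher in the hippocampus (4.70 to 6.94; 17.1 against 3.00 CPM), Grm7 2.65-fold (2.60 to 2.70; 1326 against 500.2) and Grm5 2.52-fold (2.48 to 2.56; 1513 against 601). Grm4 was 1.98-fold (1.71 to 2.29; 18.3 against 9.25) and Grm3 1.61-fold (1.54 to 1.67; 225 against 140.2) higher, the last 2.52-fold as a mean over nuclei. Grm8 alone was lower, with 71.1 against 297 CPM, so that E14 exceeded the hippocampus by 4.18-fold (3.93 to 4.45). By a limit of 2-fold, 3 of the 6 were higher and 1 lower, beside 16.4% higher and 22.4% lower among 18525 genes with at least 50 UMIs. As means over nuclei Grm5 (1.80) and Grm7 (1.88) no longer passed 2-fold. The cell makeup of the libraries differed, and its part in these ratios was not tested.

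In thalamic nuclei, a class of both sections, the members differed in opposite directions. Grm8 was at 913 CPM at E14 and 31.6 in the adult, a 28.9-fold difference (21.5 to 39.7), and a UMI was seen in 48.7% and 4.88% (1.34 to 12.0) of nuclei at 1000 UMIs per nucleus. Grm4 was at 16.2 CPM at E14 and 163 in the adult, 10.0-fold higher (7.33 to 14), with a UMI in 1.57% (0.633 to 3.21) and 13.4% (6.89 to 22.7) of nuclei. Grm7 was 2.98-fold higher in the adult class (2.83 to 3.14). Both thalamic classes were mixed, however. Adult Grm7 was 2506 CPM (2422 to 2593) in the 61 nuclei of the main cluster and 797 (617 to 1012) in the 30 outside it. At E14 Grm7 was 876 CPM in 371 nuclei and 596 in 81. On that split Grm8 was 1048 and 496 CPM at E14, and 30.6 and 47.6 in the adult. Grm4 was 17.0 and 13.8 CPM at E14, and 167 and 95.1 in the adult. Grm5 at 945 against 1358 CPM and Grm3 at 118 against 203 CPM were 1.44-fold (1.35 to 1.53) and 1.72-fold (1.44 to 2.05) lower. Grm2, with 14 and 21 UMIs, had a ratio of 1.38 whose interval spanned 1 (0.651 to 2.86). With the same 2-fold limit, 2 of the 5 members with enough UMIs were higher and 1 lower, beside 15.3% and 20.8% of 9813 genes. The thalamic lists for the 2 ages shared Tcf7l2, Lef1, Ntng1 and Slc17a6, and whether they marked the same nuclei of the thalamus was not tested.

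Adult inhibitory nuclei against E14 forebrain GABAergic nuclei gave another pattern. Grm5 was 4.24-fold higher in the adult class (3.91 to 4.58; 1759 against 415 CPM). Under a stricter marker minimum it was 6.52-fold higher, and the E14 class was mixed, with 232 CPM in the 302 nuclei of its main cluster and 488 in the 427 outside it. Grm7 had a ratio of 0.868 (0.740 to 1.01) and Grm3 one of 0.661 (0.460 to 0.923), both turning above 1 as means over nuclei (1.16 and 1.51). Grm8 was 1.49-fold higher (1.26 to 1.74), but the ratio was 0.874 without the nucleus with most Grm8 UMIs in each class and 2.82 as a mean over nuclei. By the 2-fold limit 1 of 4 members was higher and 0 lower, beside 13.2% and 23.7% of 10545 genes. The 28.9-fold lower thalamic Grm8 level of the adult thus had no like in inhibitory nuclei, and the difference between the classes was not tested.

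**Figure D4:**
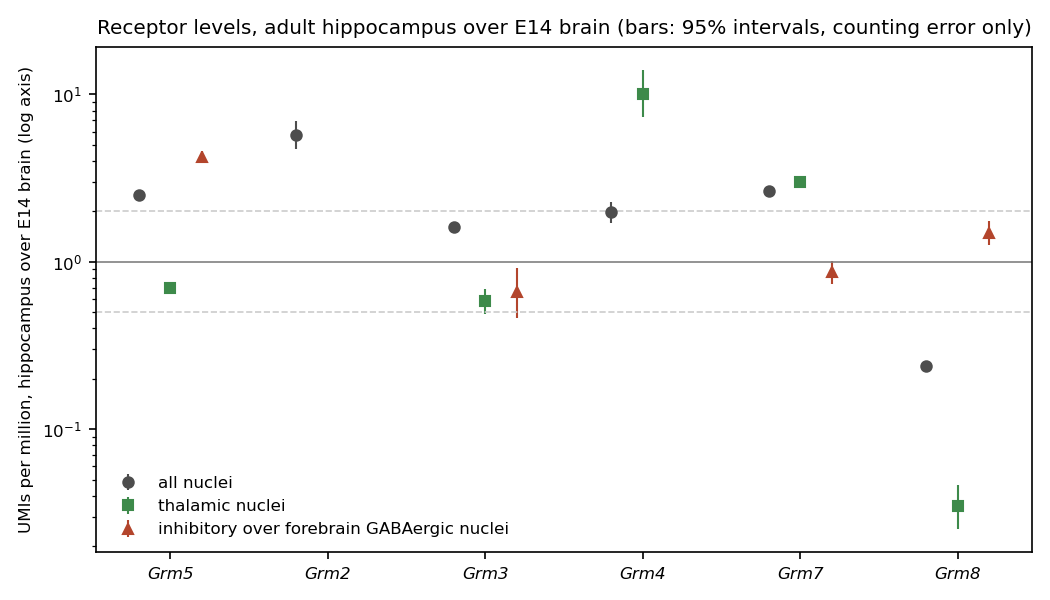
Ratio of CPM, hippocampus over E14 brain (log axis), for the members with at least 50 UMIs in a comparison; circles are all nuclei, squares thalamic nuclei, triangles inhibitory over forebrain GABAergic nuclei, bars 95% intervals of counting error, dashed lines 2-fold. In thalamic nuclei Grm4 lies at 10.0 and Grm8 at 0.0346, on opposite sides of 1, and Grm7 at 2.98.

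The non-neuronal levels were also read with nuclei that hold neuronal RNA. A nucleus of such a class was left out when its neuronal UMIs (Rbfox3, Snap25, Snhg11 and Syt1 in the adult, or Dcx, Stmn2, Tubb3, Elavl3 and Elavl4 at E14) numbered at least 3 and reached 0.25 of the mean neuronal level, a check added after Grm5 had been seen in them. It removed 41 adult nuclei, including 5 of 43 microglia, and 255 E14 nuclei. The E14 nuclei included 35 of 72 microglia or macrophage, 54 of 110 endothelial, 50 of 85 choroid plexus and 84 of 230 fibroblast or mesenchyme nuclei. They also included 18 of 23 oligodendrocyte precursor and 12 of 23 mural nuclei, which took both classes below the minimum of 20. With such nuclei kept, adult microglia read 984 CPM of Grm5 (837 to 1149) and 978 of Grm7, where without them they read 0 and 11.3. Oligodendrocytes read 112 CPM of Grm5 with them and 18.9 without, whereas their Grm7 was 613 and 631 and their Grm3 1195 and 1318. In oligodendrocyte precursors Grm5 was 1279 CPM with the 7 nuclei and 1115 without, and Grm7 922 and 642. At E14 the fibroblast or mesenchyme class fell from 387 to 19.5 CPM for Grm5, while Grm7 was 569 and 536 and Grm3 313 and 575. Grm5 of the E14 microglia or macrophage class was 358 CPM with such nuclei and 18.9 without. In E14 endothelial nuclei it was 180 and 8.10, and in choroid plexus 222 and 99.9. The panel level left in these classes is fixed by the filter and does not show that they are free of neuronal RNA. A receptor level that is alike with and without the nuclei does not show it either, because the nuclei left out can hold the gene at a like level.

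**Figure D5:**
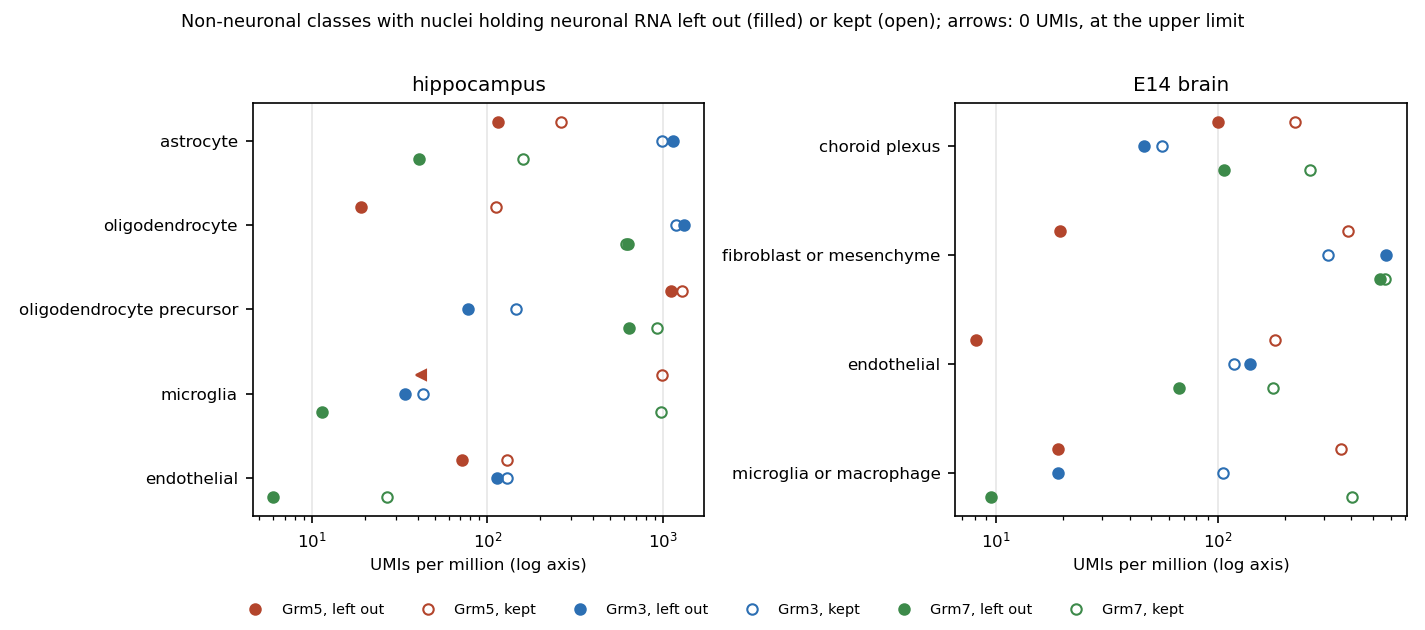
Grm5, Grm3 and Grm7 in CPM (log axis) in the non-neuronal classes of each library, with nuclei that hold neuronal RNA left out (filled) or kept (open); an arrow marks 0 UMIs at its upper limit. Grm7 was 631 CPM left out and 613 kept in oligodendrocytes, and 536 and 569 in the E14 fibroblast or mesenchyme class. Grm5 and Grm7 of adult microglia were 0 and 11.3 left out and 984 and 978 kept. A level alike both ways does not show that a class is free of neuronal RNA.

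Genes of the signalling path were read from a list of 34, and all 34 had at least 50 UMIs over both libraries. Of these 13 were at least 2-fold higher in the hippocampus and 1 lower, beside 16.4% and 22.4% of all genes tested, and the median ratio of the list was 1.47 where that of all 18525 genes was 0.898. Among the scaffolds of group I receptors, Frmpd4 was 7.41-fold, Homer2 4.58-fold, Homer1 2.14-fold and Shank1 2.06-fold higher, and Homer3 had a ratio of 0.804. Homer proteins tie group I receptors to the postsynaptic density and to the inositol trisphosphate receptor, whose gene Itpr1 was 3.81-fold higher. The adenylyl cyclases Adcy1, Adcy2, Adcy9 and Adcy8 were 9.18-, 5.31-, 4.60- and 3.70-fold higher, and Adcy5 had a ratio of 0.717. Over all nuclei none of the 7 G-protein genes passed 2-fold in either direction, with ratios from 0.557 for Gnai2 to 1.83 for Gna11. Ncdn, a cytosolic partner of Grm5, was 18.5-fold and Grasp, a scaffold of group I receptors, 9.45-fold higher, and the regulator of G-protein signalling Rgs4 was 3.75-fold higher. The 1 lower gene was Grip1, a PDZ scaffold, at a ratio of 0.349. Elfn2, which binds group III receptors across the synapse, was 4.16-fold higher, and Elfn1 had a ratio of 0.514 over all nuclei but was 10.1-fold higher (6.09 to 16.6) in adult inhibitory than in E14 forebrain GABAergic nuclei.

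In thalamic nuclei 11 of 30 listed genes were at least 2-fold higher in the adult and 6 lower, beside 15.3% and 20.8% of all genes tested, so the lower count was near the background. They included Gnaq (0.444), Gnai2 (0.249) and Gnai3 (0.425). The phospholipase C genes went apart there, Plcb4 with 650.3 against 238 CPM (2.73-fold higher) and Plcb1 with 63.9 against 396 (0.161). Adult Rgs4 was at 99.0 CPM against 1.35 at E14 (4 UMIs), Adcy8 at 395 against 35.2 and Homer2 at 164 against 14.9, while Homer1 was at 70.2 against 68.3. Inhibitory against forebrain GABAergic nuclei gave 13 higher and 5 lower of 31, beside 13.2% and 23.7% of all genes tested. Grip1 was 3.89-fold and Gnai1 2.30-fold higher there, and Gnaq (0.388) and Gnai2 (0.191) were lower. The median ratios of the list were 1.39 and 1.55 in these comparisons, beside 0.914 and 0.858 for all genes.

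Likeness of pattern was measured as Pearson's r of log2(CPM + 10) over classes, among genes with at least 200 UMIs that were neither markers nor members. Classes of 1 library share depth and free RNA, so r is a description without a test. Over the 10 hippocampal classes the genes most like Grm5 were Lmtk3, Unc79 and Pnma3 (r 0.980 to 0.984), and those like Grm7 were Cntn3, Dgki and Rps6kl1 (r 0.960 to 0.961). Grm2 came with Vwa3b, Ntf3 and Olfr46 (r 0.858 to 0.870), Grm3 with Iqck, Fam98b and Iqch (r 0.878 to 0.914), and Grm8 with Vstm2a, Gm49876 and Mycbp (r 0.903 to 0.906). Over the 13 E14 classes Grm5 was matched by A230006K03Rik, Dpp6 and Snhg14 (r 0.978 to 0.982), Grm7 by Cacna1c, Radil and Grin2d (r 0.936 to 0.951) and Grm8 by Gm28756, Sycp2 and Gm1992 (r 0.959 to 0.966). Grm2 was matched by Samd3, Ppp2r2c and Rcan3 (r 0.820 to 0.905) and Grm3 by Gm28153, Gm43192 and Rbms3 (r 0.903 to 0.910). Grm2 itself had only 177 UMIs at E14, below the 200 asked of other genes, so its matches rest on few counts. None of these 5 members had a gene in common between its hippocampal and its E14 list of 3. Those lists were the top 3 of 9595 and of 13797 genes, ranked over different classes. The overlap for other genes was not computed, so no change with age can be read from this.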

How the data were processed

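What the authors deposited are whole UMI counts, 1 matrix per library with genes by barcodes and no normalization, made on mm10 with introns counted. Cell Ranger versions in the file headers are 6.1.2 (hippocampus) and 7.0.1 (E14). CellBender is named in the methods for the embryo, but that matrix carries the Cell Ranger header. Barcodes entered with 500 UMIs or more and less than 5% mitochondrial UMIs. The members and gene lists were chosen with earlier results of these data known.

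A marker score per nucleus summed the natural log of observed over expected UMIs (each plus 1) over 8 genes. A class needed a score of 1.5, 3 genes above expectation and a runner-up at 0.5 of it or less. Doublets were treated by leaving out 66 hippocampal and 765 E14 nuclei with markers of several classes, and those with neuronal RNA. No doublet caller was run. Near the limit, within 0.5 of it, lay 47 of 258 dentate granule and 114 of 729 forebrain GABAergic nuclei. Sums have exact Poisson, shares exact binomial (Clopper-Pearson) and ratios exact conditional 95% intervals, which cover counting error only. A count of 0 was read as at most 3. Named genes were the members, the 34 pathway genes, markers, and the 3 genes per member with highest r, which for Grm4 are not reported here. Ttr, a choroid plexus transcript spread as free RNA, was at 142 to 635 CPM in the other E14 classes and Malat1 at 2.50 to 9.40% of UMIs in the adult ones. Gene positions are from GENCODE vM21. Python 3.11.15, scipy 1.17.1, R 4.3.3 and Seurat 5.3.0 were used, and the scripts were tested on simulated data.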

Additional observations from a re-analysis of the deposited data

How the results depend on the processing

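Alternatives were nuclei with at least 1000 UMIs, under 1% mitochondrial UMIs, levels without Malat1 and mitochondrial UMIs, means over nuclei, a stricter marker minimum, clusters named by the same lists, nuclei with markers of 2 classes given to the class with more, and thinning to 2000 UMIs. Keeping nuclei with neuronal RNA, leaving out the nucleus with most UMIs of a member, and the pathway counts under other settings were chosen after seeing the data. By CPM, the highest class was that of the main values for 5 or 6 of the 6 hippocampal members under each of them. The exception was Grm8 with clusters, where the cortical excitatory cluster came first. By thinned share, Grm5 was highest in CA3 and not in CA1, at 1000 and at 2000 UMIs. At E14 the highest class was that of the main values for 4 to 6 of 6. Clusters that no marker list named did not enter this count. Grm3 changed under 1 setting, where mural nuclei (591 CPM) came beside fibroblasts (586), and Grm4 under 4, in 2 of which its first class was not formed. Members at least 2-fold higher in the hippocampus numbered 2 to 4, because Grm4 passed 2 under 1% mitochondrial UMIs (2.01) and without Malat1 (2.02), while as means over nuclei Grm5 and Grm7 read 1.80 and 1.88 and Grm3 2.52. Grm8 was the 1 lower member throughout, at 0.169 to 0.245. Lower pathway genes numbered 2 at 1000 UMIs and 3 under 1% mitochondrial UMIs, against 1. Of the ratios of inhibitory over forebrain GABAergic nuclei 3 reversed, Grm3 (1.51) and Grm7 (1.16) as means over nuclei, and Grm8 (0.874) without its richest nuclei. The cause was not tested.

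Of 540 recomputed class levels 28 moved over 1.5 times. The farthest were Grm7 and Grm8 of the class with Cajal-Retzius markers, 115 and 81.8 CPM with clusters, and choroid plexus Grm5. No paired analysis was possible because each group has 1 library. For adult microglia 3 counts correspond to 34.0 CPM, and 0 counts allow up to 41.8, and the E14 classes leave out most nuclei of that library.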
